A study of Homo sapiens with 9 samples.

Results

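The replication-dependent histone genes encode the linker histone H1 and the core histones H2A, H2B, H3 and H4 in 4 gene clusters. They were taken as all rows of the deposited table whose symbol starts with HIST1H, HIST2H, HIST3H or HIST4H, which gave 73 of 38478 gene rows (0.190%). The rule used names alone and no measured value. By type the rows are 6 H1, 18 H2A, 20 H2B, 14 H3 and 15 H4 genes. By cluster they are 56 HIST1 rows on chromosome 6, 13 HIST2 rows and 3 HIST3 rows on chromosome 1, and HIST4H4 on chromosome 12 (GENCODE v29, GRCh38).

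Replication-dependent histone genes are transcribed in S phase, when new DNA has to be packed, from clusters where the coactivator NPAT gathers. Their transcripts are the one large class of animal messenger RNA that normally ends in a stem-loop and not in a poly(A) tail: the stem-loop is bound by SLBP, and the U7 small nuclear ribonucleoprotein guides the cut behind it. Some members also use a poly(A) signal further downstream, a form known from resting and differentiated cells. FBXW7 is the substrate receptor of a ubiquitin ligase that targets cyclin E, whose kinase partner phosphorylates NPAT, and KMT2D is a histone H3 lysine methyltransferase of enhancers.

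The libraries come from OPM-1, an established human myeloma line, grown in RPMI with fetal bovine serum and given as wild type in genotype. In each group the cells carried stable expression of RNAs against luciferase (gLuc, the control), against FBXW7 (gFBXW7), or against FBXW7 and KMT2D together (gFBXW7_gKMT2D). There were 3 libraries per group from replicates stated to be independent, and 16337492 to 27076242 counts per library. RNA was selected for poly(A) before strand-marking library construction, so the histone counts below come from what passed that selection, and the labels do not say how the targeting RNAs act or whether a line is 1 clone.

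RNA of the targeted genes did not separate the groups. FBXW7 stood at 47.9 to 53.8 CPM (counts per 1000000 of the effective library size) in gLuc, 53.4 to 55.5 in gFBXW7 and 45.2 to 71.7 in gFBXW7_gKMT2D. KMT2D stood at 41.0 to 104, 48.8 to 65.1 and 28.6 to 107 CPM in the same order, so these levels do not check the labels. All 8 plasma cell markers were detected, while 8 markers of T, myeloid, fibroblast and epithelial cells summed to 0.168 to 0.742 CPM, with COL1A2, EPCAM and KRT8 at 0. In the gFBXW7_gKMT2D group, libraries 2 and 3 stood apart from each other in opposite directions for most histone rows, and fold changes, spread and correlations are given with and without them.

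The sequence that sets these transcripts apart is the stem-loop near the 3′ end. A 16-base stem-loop with a stem of 6 bases on each side (capitals) and a loop of 4 bases (lower case) was found in GENCODE v29 transcripts of 33 of the 73 rows, 16 of them among the 26 rows with enough reads to test. The 5 forms shown here cover the members with the most reads among those where it was found, and they are given as DNA letters.
H2A, H2B and H3 form: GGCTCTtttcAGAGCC
H4 form: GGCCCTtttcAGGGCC
HIST2H4A and HIST2H4B form: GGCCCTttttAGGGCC
HIST1H2BD form: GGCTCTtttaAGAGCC
HIST2H2BC form: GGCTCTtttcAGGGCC
Of these, the most frequent was shared by 17 rows (6 H2A, 8 H2B and 3 H3). Counted from the first base of the stem, the H4 form, found in 5 rows, differs from it by T4C and A13G, and the form of HIST2H4A, HIST2H4B and HIST1H4I by T4C, C10T and A13G. The HIST1H2BD form, found in 5 rows, differs by C10A, and the HIST2H2BC form, shared with HIST1H2AG, by A13G. A missing match says only that these letters are not in the annotated transcript, and for HIST1H1C, HIST1H2BK, HIST1H4C and HIST2H2AC none was found.

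Where the stem-loop lies in the transcript differed between members. In HIST2H2AA3 it covers bases 499 to 514 of a 549-base transcript, 35 bases from the end. In HIST2H2BE it covers bases 450 to 465 of a 2194-base transcript, with 1729 bases behind it. A transcript with over 100 bases behind the stem-loop was annotated for 24 rows, and AATAAA or ATTAAA stood in the last 40 bases of a transcript of 24 rows. The gene length in the deposited table was 2223 bases for HIST2H2BE, 1344 for HIST1H2BD and 887 for HIST1H2BK, against 390 for HIST1H4C and 534 for HIST2H2AA3, so the counted stretch of HIST2H2BE reaches far behind the stem-loop. For HIST1H2BD the annotated transcript with the stem-loop ends 39 bases behind it, and where the other counted bases lie was not tested.

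The promoters of the members carry the elements known for histone genes. RefSeq promoters (GRCh38.p14) were matched for 65 of the 73 rows, and the 250 bases before the start site were searched on both strands for TATAAA, for CCAAT and for the octamer ATTTGCAT. TATAAA was found in 43 of 65 member promoters (66.2%) against 10.7% of all 35116 RefSeq promoters. CCAAT was found in 55 of 65 (84.6%) against 32.0%, in every H1, H2A, H2B and H3 promoter matched and in 3 of 13 H4 promoters. The octamer was found in 26 of 65 against 1.63% of all promoters. It was in 11 of 16 H2A, 14 of 18 H2B, 1 of 12 H3, 0 of 6 H1 and 0 of 13 H4 promoters. These are not all separate stretches, since windows of back-to-back genes can cover the same bases and 1 motif then counts for both. HIST1H2AC and HIST1H2BC are such a pair. The 1 H3 promoter is that of HIST1H3D, and its window, chr6:26199294-26199543, is also the window of the H2A gene HIST1H2AD. The 3 promoters shown belong to the most abundant H1 row, the most abundant H2B row and a back-to-back H2A and H2B pair whose members behaved differently between libraries; capitals mark the 3 motifs on either strand, and overlapping matches run together.
HIST1H1C, chr6:26056471-26056720, minus strand: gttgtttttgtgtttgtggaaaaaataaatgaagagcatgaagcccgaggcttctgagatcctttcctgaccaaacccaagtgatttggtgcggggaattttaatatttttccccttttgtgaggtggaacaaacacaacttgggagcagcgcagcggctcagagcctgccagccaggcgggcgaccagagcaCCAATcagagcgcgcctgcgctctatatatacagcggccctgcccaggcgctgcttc
HIST1H2BK, chr6:27146859-27147108, minus strand: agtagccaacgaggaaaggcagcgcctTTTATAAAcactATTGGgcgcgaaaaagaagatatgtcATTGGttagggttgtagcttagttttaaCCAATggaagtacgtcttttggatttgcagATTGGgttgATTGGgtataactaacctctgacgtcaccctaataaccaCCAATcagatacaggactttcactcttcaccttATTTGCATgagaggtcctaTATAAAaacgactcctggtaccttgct
HIST2H2AC, chr1:149886668-149886917, plus strand: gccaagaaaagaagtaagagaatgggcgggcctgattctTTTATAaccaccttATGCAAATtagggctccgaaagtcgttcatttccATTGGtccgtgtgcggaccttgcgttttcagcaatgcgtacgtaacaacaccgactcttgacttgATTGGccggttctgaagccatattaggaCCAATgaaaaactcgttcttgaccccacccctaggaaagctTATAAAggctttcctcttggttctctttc
The HIST1H1C window holds CCAAT and neither of the other motifs. The HIST1H2BK window holds all 3. The HIST2H2AC window shares 235 of its 250 bases with the window of HIST2H2BE, which reads the same stretch on the minus strand, and it holds a TATAAA match for each direction and 1 octamer. A match is a description of the sequence and not evidence that a factor binds.

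Together the 73 rows held 21396 of 171971414 counts, or 0.0124%. Per 1000000 counts of a library, the members summed to 151, 128 and 112 counts in gLuc replicates 1, 2 and 3. In gFBXW7 they summed to 121, 115 and 110 counts. In gFBXW7_gKMT2D they summed to 131, 99.3 and 169 counts. The lowest and the highest of the 9 libraries both belong to gFBXW7_gKMT2D, and the groups overlap. The means were 130 ± 19.6 (SD, n = 3), 115 ± 5.39 (SD, n = 3) and 133 ± 35.2 (SD, n = 3) counts, closer to each other than the spread within gFBXW7_gKMT2D. In bulk RNA, fewer cells in S phase and less histone RNA per cell cannot be told apart.

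Detection was uneven. No read was counted in any library for 15 rows, 10 further rows had fewer than 10 reads in all, and 41 rows had reads in all 9 libraries. For a row at 0, a floor of 3 counts allows up to 0.0174 counts per 1000000 over the 9 libraries and up to 0.184 in the shallowest, counting error only. The 15 rows at 0 were 2 H1, 2 H2A, 4 H2B, 3 H3 and 4 H4 genes. They include the H1 variant gene HIST1H1T and the H2A and H2B pair HIST1H2AA and HIST1H2BA, known from testis. A row passed the filter on low counts in 26 cases, and these hold 95.7% of the members' counts.

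**Figure D1:**
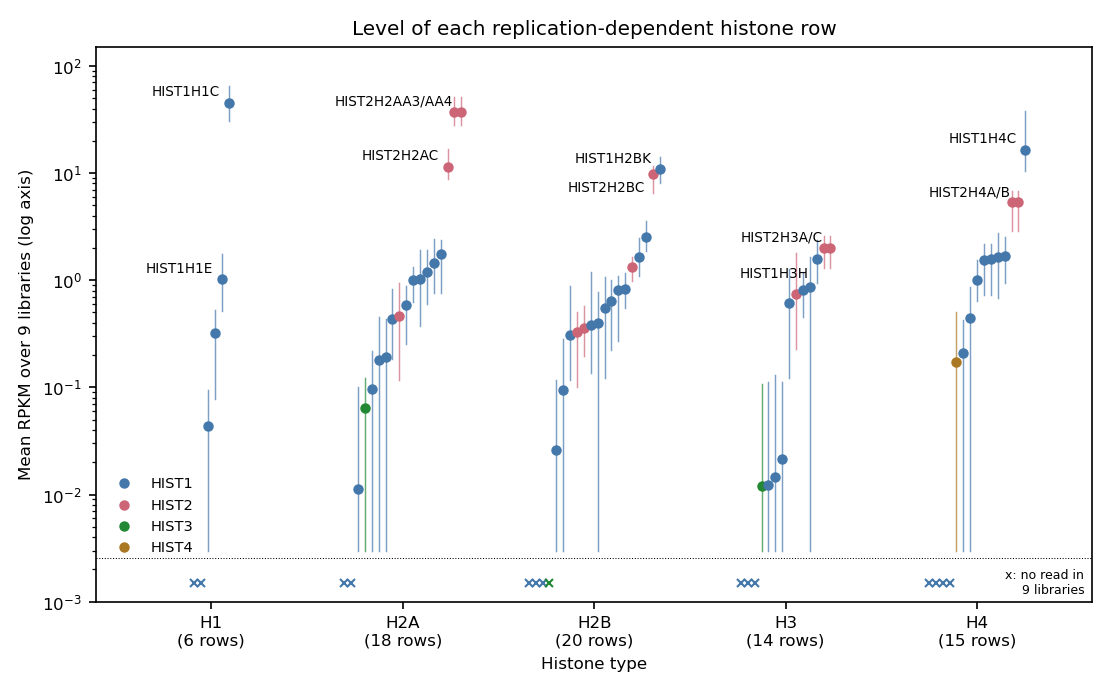
Mean RPKM over 9 libraries (log axis) of each of the 73 rows, grouped by histone type and coloured by cluster; bars span the lowest to the highest library and crosses mark rows with no read. HIST1H1C at 45.4 RPKM and HIST2H2AA3/AA4 at 37.0 RPKM lie highest, and most rows lie below 1 RPKM.

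A few rows held most of the reads. HIST1H1C (ENSG00000187837.3, chr6:26055787-26056428, minus strand), a linker histone gene, had 45.4 RPKM on average and ranged from 30.5 to 64.6 over the libraries. HIST2H2AA3 and HIST2H2AA4, an identical pair of H2A genes (chr1:149842188-149842736 and chr1:149851061-149851624), had 37.0 RPKM each. These 3 rows held 57.4% of the members' counts. Equal counts in all 9 libraries may stand for the same reads entered for both copies. The 3 identical pairs with equal counts were also counted once each, an alternative chosen after the data had been seen. The members then held 17518 counts, and HIST1H1C with 1 of the H2A copies 51% of them. RPKM divides by gene length, but how much of each transcript passed the poly(A) selection is not known. A comparison of RPKM between genes therefore holds for the selected RNA only.

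The histone types differed in their share of reads, and the leading type depended on the identical pairs. Over all rows, H2A rows held 38.6% of the members' counts, H1 rows 27%, H2B rows 4283 of the 21396 counts, H4 rows 10.8% and H3 rows 3.63%. Over the 9 libraries the share of H2A ranged from 35.0% to 41.4% and that of H3 from 2.74% to 4.55%, so the order of those 2 types was the same in each library. With identical pairs counted once, H1 led with 33%, followed by H2A with 28%, H2B with 24.4%, H4 with 11.1% and H3 with 3.45%. The ranges of H1 (28.1% to 36.5%) and H2A (25.3% to 30.3%) over the libraries then overlapped. Over all rows, the share of H1 (23% to 29.6%) and that of H2B (14.8% to 26.6%) overlapped. The nucleosome takes equal numbers of the 4 core histone proteins. The shares here are of RNA that passed poly(A) selection, and why they differ was not tested.

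Among H1, H2A, H2B and H4 genes, 1 to 3 rows of each type stood above the rest. Among H2A genes, HIST2H2AC followed the identical pair with 11.5 RPKM, and the next, HIST1H2AC, had 1.75. Among H2B genes, HIST1H2BK had 10.9 RPKM, HIST2H2BC, annotated as a transcribed pseudogene, 9.86, and HIST1H2BD 2.55. The ranges of the first 2 over libraries, 8.03 to 14 and 6.57 to 11.6, overlap. Among H4 genes, HIST1H4C had 16.5 RPKM and the identical pair HIST2H4A and HIST2H4B 5.31 each. Among H3 genes the identical pair HIST2H3A and HIST2H3C had 2.0 RPKM each and HIST1H3H 1.57, again with overlapping ranges. HIST1H3B followed with 0.857 RPKM and reached 1.64, within the ranges of these rows, so no H3 row stood apart. Among H1 genes, HIST1H1E followed HIST1H1C with 1.03 RPKM.

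The clusters contributed differently per gene. HIST1, the large cluster, held 51.8% of the members' counts in 56 rows, 14 of them at 0, while HIST2 held 48.1% in 13 rows, all with reads in every library. In a library the HIST2 share ranged from 45.7% to 50.3%. All 3 identical pairs with equal counts lie in HIST2, and with each counted once HIST1 held 63.2% and HIST2 36.7%. HIST1 was divided at the widest gap between neighbouring start positions. The 35 rows before the gap, up to HIST1H4H, had a median of 0.0950 RPKM with 12 rows at 0, and the 21 rows from HIST1H2BJ on had a median of 0.834 RPKM with 2 at 0. In summed reads the order was the opposite, with 38.4% of the members' counts before the gap, where HIST1H1C and HIST1H4C lie, and 13.4% after it. In the small HIST3 cluster, HIST3H2A had 5 reads in all, HIST3H3 1 read and HIST3H2BB none. HIST4H4, the single row of the last cluster, had 13 reads in 6 libraries.

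Several values are not independent. Counts were equal in all 9 libraries for HIST2H2AA3 and HIST2H2AA4 (3348 counts each), for HIST2H3A and HIST2H3C (172 each) and for HIST2H4A and HIST2H4B (358 each), and differed by at most 1 count between HIST1H4J and HIST1H4K. The transcripts of the first 2 pairs are 100% identical over 549 and 1656 aligned bases. Those of HIST1H4J and HIST1H4K are 100% identical over 312 aligned bases, so reads could be shared there too. Both of these rows were kept wherever identical copies were counted or shown once. HIST2H2BC and HIST2H2BE are 95.8% identical over 452 bases, so reads could be split between them. HIST2H3A overlaps HIST2H4B, and HIST2H3C overlaps HIST2H4A, each on opposite strands, and whether strand was used in counting is not given in the sources used here.

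Histone genes often lie back to back, and the reads within such pairs were unequal in some and alike in others. HIST1H3J and HIST1H2BO had 50 and 51 counts, and HIST1H2AA and HIST1H2BA had 0 each. Of 13 pairs with starts less than 1000 bases apart, HIST1H2BK and HIST1H2AH were the most unequal of those with at least 1000 reads, with 1656 counts for HIST1H2BK and 16 for HIST1H2AH across a gap of 330 bases. HIST2H2BC had 992 counts and HIST2H2AA4, 123 bases away, 3348. HIST2H2BE had 515 counts and HIST2H2AC, 322 bases away and read from the promoter stretch printed above, 851.

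The groups were compared in 3 ways with edgeR's quasi-likelihood test, adjusted by Benjamini-Hochberg over all 13262 tested genes at a threshold of 0.05. By the series title, gFBXW7 against gLuc addresses FBXW7 loss, and the comparisons of gFBXW7_gKMT2D with gLuc and with gFBXW7 address the joint loss and what the second targeting RNA adds. No replication-dependent histone row was called in any of the 3, and the lowest adjusted p was 0.96, 0.90 and 1.0 in gFBXW7 against gLuc, gFBXW7_gKMT2D against gLuc and gFBXW7_gKMT2D against gFBXW7 (edgeR). Of all tested genes 0%, 0.0528% and 0.0603% were called in the same order. At an unadjusted p under 0.05 edgeR had 2, 0 and 2 of 26 members, against 1.58%, 3.61% and 4.22% of all genes. The DESeq2 Wald test, run on all rows without this filter, also called 0 members. It gave an adjusted p to 58, 39 and 44 of the 73 rows, and had 0, 0 and 2 members at an unadjusted p under 0.05, against 0.865%, 2.03% and 2.18% of all genes.

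**Figure D2:**
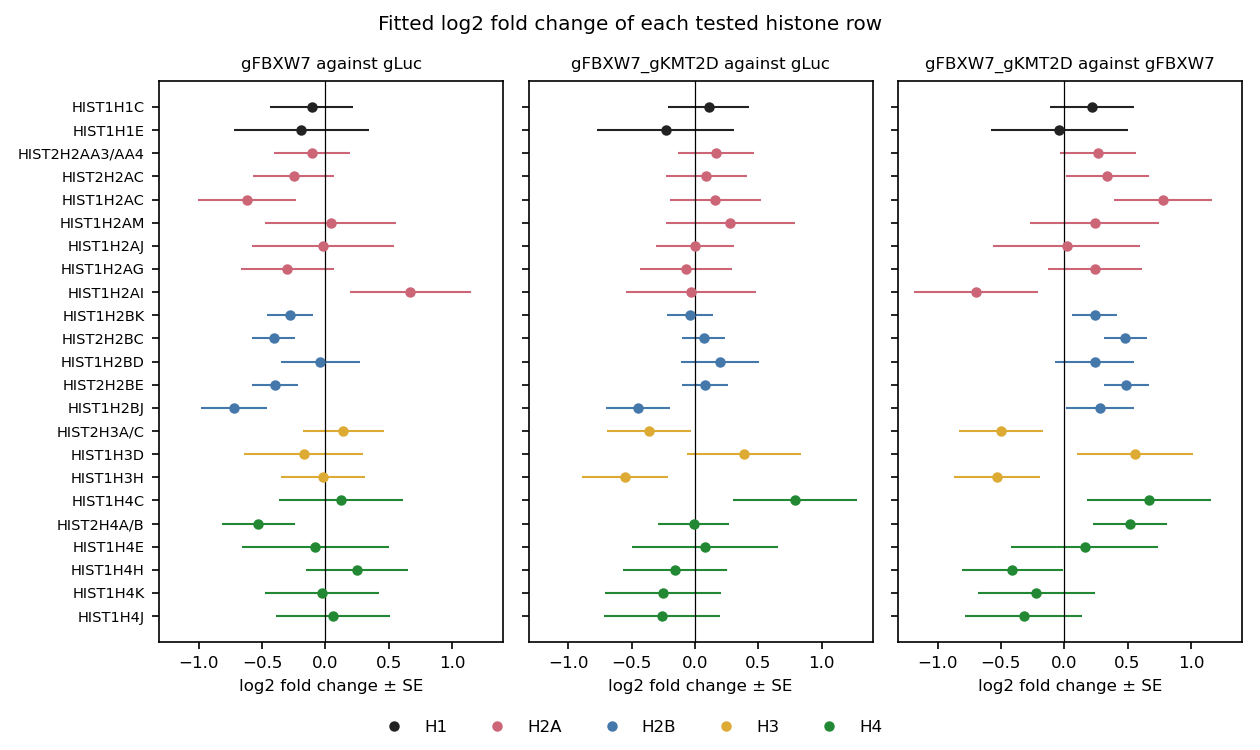
Log2 fold change (points) and its standard error (bars) for the 23 tested rows, identical copies shown once, in the 3 comparisons, coloured by histone type. All 5 H2B rows lie below 0 in gFBXW7 against gLuc and above 0 in gFBXW7_gKMT2D against gFBXW7, and no row passed the test.

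The direction of the small differences varied by type. In gFBXW7 against gLuc, 7 of the 26 members had a fold change above 0 and 19 below, with a median log2 fold change of -0.11 against -0.00 over all genes. All 5 H2B rows were below 0, with a median of -0.40. In gFBXW7_gKMT2D against gLuc the split was 12 above and 14 below, with medians of -0.01 for the members and 0.00 for all genes. In gFBXW7_gKMT2D against gFBXW7 it was 18 above and 8 below, with medians of 0.24 and 0.02, all 5 H2B rows above 0 with a median of 0.28, and 3 of 4 H3 rows below 0. The first and the last comparison share the gFBXW7 libraries, so their opposite directions are not separate observations.

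These medians rest on single libraries. Without gFBXW7_gKMT2D replicate 3 the median was -0.30 in gFBXW7_gKMT2D against gLuc and -0.10 in gFBXW7_gKMT2D against gFBXW7. Without gFBXW7_gKMT2D replicate 2 it was 0.22 and 0.51. Without gLuc replicate 1 the median in gFBXW7 against gLuc was 0.10, so the sign of each of the 3 medians changed when 1 library was left out, with 0 members called in each case.

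HIST1H1C, which encodes the linker histone that sits on the DNA between nucleosomes, was at 44.2, 32.1 and 24.7 CPM in gLuc. It was at 33.2, 31.0 and 29.3 CPM in gFBXW7 and at 33.5, 20.5 and 55.5 CPM in gFBXW7_gKMT2D. The gFBXW7_gKMT2D libraries are both the lowest and the highest, and all gFBXW7 values lie within the gLuc range. The log2 fold changes were -0.11 (SE 0.33), 0.11 (SE 0.32) and 0.22 (SE 0.33) in the order of the comparisons above, each smaller than its standard error, with edgeR adjusted p of 0.96, 0.94 and 1.0.

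**Figure D3:**
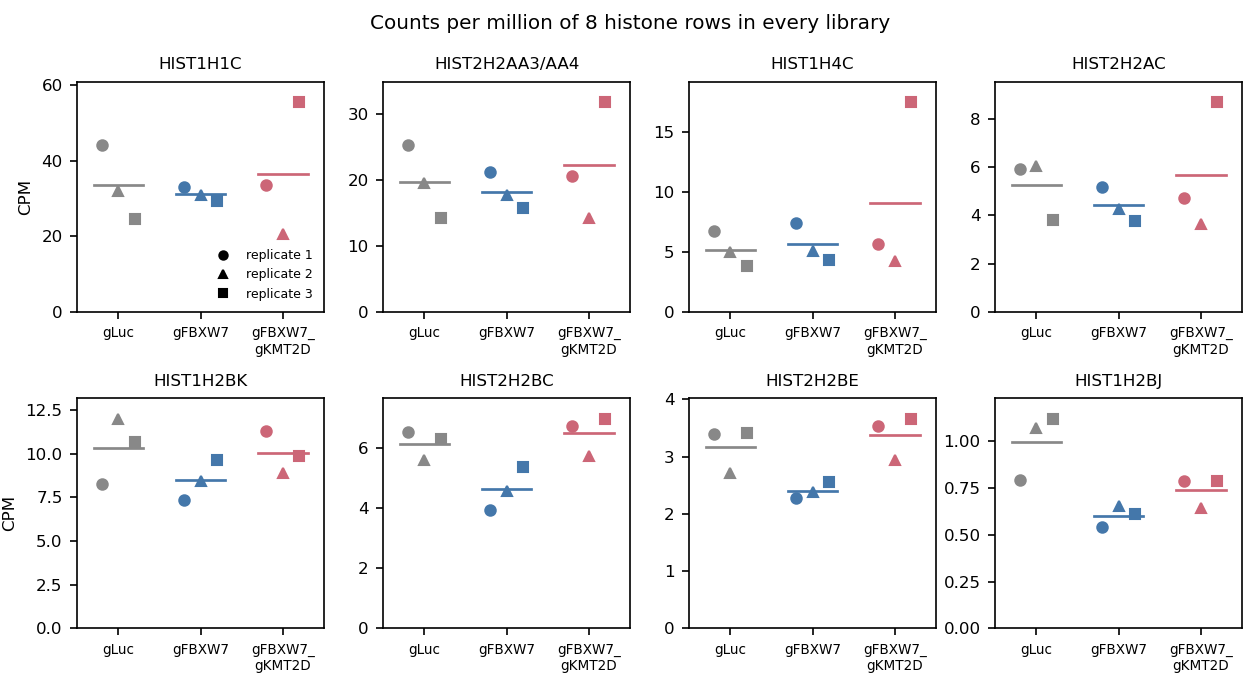
Level in CPM in each of the 9 libraries for 8 rows; marker shape gives the replicate number, which does not pair libraries across groups, and lines are group means. In the upper row gFBXW7_gKMT2D replicate 3 stands above all other libraries for each gene. In the lower row, 4 of the 5 tested H2B genes, it lies near other libraries, though highest for HIST2H2BC and HIST2H2BE. The fifth, HIST1H2BD, is not shown and follows the upper row, at 5.60 CPM in that library and 2.44 to 3.72 CPM in the others.

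HIST2H2AA3, identical to HIST2H2AA4 and coding for a core H2A, was at 25.4, 19.6 and 14.2 CPM in gLuc. It was at 21.3, 17.8 and 15.7 CPM in gFBXW7 and at 20.7, 14.2 and 31.8 CPM in gFBXW7_gKMT2D. The groups overlap, with gFBXW7_gKMT2D replicate 3 above all other libraries. The log2 fold changes of -0.11 (SE 0.30), 0.17 (SE 0.30) and 0.27 (SE 0.30) did not pass the test.

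HIST1H4C, the most abundant H4 gene, was at 6.73, 5.03 and 3.85 CPM in gLuc. It was at 7.45, 5.12 and 4.33 CPM in gFBXW7 and at 5.67, 4.24 and 17.5 CPM in gFBXW7_gKMT2D. A single library, gFBXW7_gKMT2D replicate 3, lies above all others. The fitted log2 fold change of 0.79 (SE 0.49, edgeR adjusted p 0.90) in gFBXW7_gKMT2D against gLuc became -0.08 without that library.

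HIST2H3A, identical to HIST2H3C and the most abundant H3 gene, was at 1.32, 0.904 and 0.926 CPM in gLuc. It was at 1.08, 1.13 and 1.27 CPM in gFBXW7 and at 0.674, 0.611 and 1.29 CPM in gFBXW7_gKMT2D. In the last group 2 libraries are lower than all others and 1 is among the highest. Its log2 fold change in gFBXW7_gKMT2D against gFBXW7 was -0.50 (SE 0.33, edgeR adjusted p 1.0), and with 12 to 25 counts per library its precision is limited by depth.

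HIST1H2BK, the most abundant H2B gene, was at 8.27, 12.0 and 10.7 CPM in gLuc. It was at 7.35, 8.45 and 9.63 CPM in gFBXW7 and at 11.3, 8.89 and 9.90 CPM in gFBXW7_gKMT2D. The groups overlap, and gFBXW7_gKMT2D replicate 3 lies in the middle of its group. The log2 fold changes were -0.28 (SE 0.18), -0.04 (SE 0.18) and 0.24 (SE 0.18), none of which passed the test.

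HIST2H2BC, the transcribed pseudogene (chr1:149844498-149850937, minus strand), was at 6.52, 5.60 and 6.29 CPM in gLuc. It was at 3.94, 4.58 and 5.35 CPM in gFBXW7 and at 6.74, 5.74 and 6.96 CPM in gFBXW7_gKMT2D. All gFBXW7 libraries lie below all libraries of both other groups. The log2 fold change was -0.41 (SE 0.17) in gFBXW7 against gLuc and 0.48 (SE 0.17) in gFBXW7_gKMT2D against gFBXW7, with edgeR adjusted p of 0.96 and 1.0. It stayed between -0.53 and -0.30 in the first and between 0.38 and 0.60 in the second when any 1 library was left out.

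HIST2H2BE, named here after its values were seen, is the H2B gene of the pair whose promoter is shown above. It was at 3.39, 2.71 and 3.41 CPM in gLuc. It was at 2.27, 2.38 and 2.55 CPM in gFBXW7 and at 3.54, 2.95 and 3.66 CPM in gFBXW7_gKMT2D. Again all gFBXW7 libraries lie lowest, with log2 fold changes of -0.40 (SE 0.18) and 0.49 (SE 0.18) in the 2 comparisons that hold gFBXW7 and edgeR adjusted p of 0.96 and 1.0. Its transcript is 95.8% identical to that of HIST2H2BC over 452 aligned bases, so reads could be shared, and how many are was not tested. HIST2H2BC and HIST2H2BE are therefore not taken as 2 separate observations.

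HIST1H2BJ, also named after its values were seen, had the lowest fold change of the 26 in gFBXW7 against gLuc. It was at 0.795, 1.07 and 1.12 CPM in gLuc, at 0.540, 0.654 and 0.611 in gFBXW7 and at 0.786, 0.645 and 0.789 in gFBXW7_gKMT2D. The gLuc libraries lie above those of both other groups, which overlap. The log2 fold change was -0.72 (SE 0.26, edgeR adjusted p 0.96), from 10 to 23 counts per library.

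Separation of the groups was counted over all genes for comparison. In gFBXW7 against gLuc the libraries did not overlap for 5 of 26 members, all lower in gFBXW7 (HIST1H2BJ, HIST2H2BC, HIST2H2BE, HIST2H4A and HIST2H4B), where 4.49% of all genes were separated in that direction. None was higher, against 4.37% of all genes. In gFBXW7_gKMT2D against gLuc, 1 member was lower (HIST1H2BJ) against 3.69% of all genes, and none higher against 3.28%. In gFBXW7_gKMT2D against gFBXW7, 2 members were higher (HIST2H2BC and HIST2H2BE) against 4.35% of all genes, and none lower against 5.20%. The 5 members in the first comparison stand for 4 sequences with the identical pair taken as 1. They stand for 3 if HIST2H2BC and HIST2H2BE are also taken as 1, a count made after the values were seen. These 2 are 95.8% identical over 452 aligned bases of the 2194-base HIST2H2BE transcript, and how many reads they share was not tested.

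The spread between libraries of a group was wide for most members. The SD of log2 CPM within groups had a median of 0.437 over the 26 tested members and 0.267 over all tested genes. Among genes with a mean of at least 50 reads, where counting error matters less, it was 0.431 for the 9 members and 0.234 for 10569 genes. It was 0.483 for the 251 genes of up to 800 bases in the same class, so short genes as a class spread as widely. Without gFBXW7_gKMT2D replicate 3 the medians were 0.348 for the members and 0.207 for all tested genes, and without gFBXW7_gKMT2D replicate 2 they were 0.357 and 0.237.

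**Figure D4:**
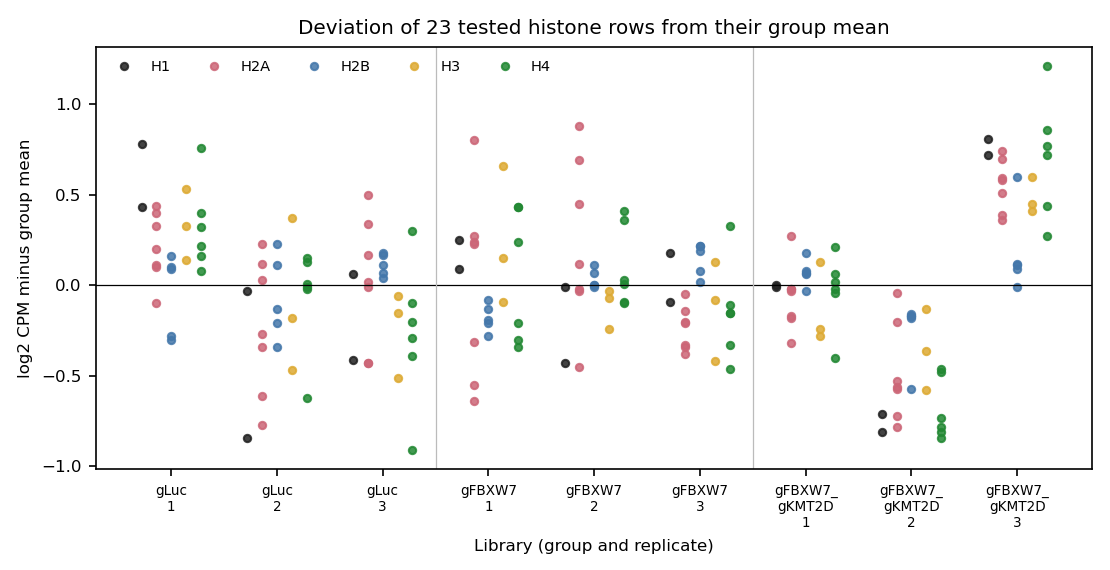
Log2 CPM minus the group mean for the 23 tested rows, identical copies shown once, in each library, coloured by histone type. Nearly all rows lie below 0 in gFBXW7_gKMT2D replicate 2 and above 0 in gFBXW7_gKMT2D replicate 3, and 4 of the 5 H2B rows lie close to 0 in both, the other being HIST1H2BD at -0.57 and 0.60.

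The spread was shared across members. All 26 tested members lay below their group mean in gFBXW7_gKMT2D replicate 2, with a median deviation of -0.55 on the log2 scale. In gFBXW7_gKMT2D replicate 3, 25 of 26 lay above it, with a median of 0.58, and HIST1H4C was highest with 1.21. In gLuc replicate 1, 23 of 26 lay above it, with a median of 0.21. The exception in gFBXW7_gKMT2D replicate 3 was HIST1H2BK, at -0.01. The same counts were not made over all tested genes, so the pattern is not shown to be particular to the members. Short genes as a class also took a larger part of the counts in replicate 3 of that group than in replicate 2, as given below.

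Among the 8 sequences with a mean of at least 50 reads, some members shared this spread closely and others did not. HIST1H1C, HIST2H2AA3, HIST1H4C and HIST2H2AC varied together, with Pearson r of 0.92 to 0.98 between their deviations over the 9 libraries. Their r was 0.88 to 0.97 without gFBXW7_gKMT2D replicate 2 and 0.81 to 0.96 without replicate 3 of that group. HIST1H2BD had r of 0.45 to 0.68 with these 4 genes, HIST2H2BC and HIST2H2BE 0.07 to 0.48, and HIST1H2BK -0.28 to -0.13. Among the H2B genes, HIST2H2BC and HIST2H2BE had r of 0.84 with each other and HIST1H2BD had 0.83 and 0.89 with them, while HIST1H2BK had 0.00 to 0.31 with these 3. The r of HIST1H2BD with the first 4 genes was 0.05 to 0.33 without replicate 2 and -0.31 to 0.29 without replicate 3, so it rests on those libraries. That of HIST1H2BK with the first 4 genes was more negative, at -0.73 to -0.48 without replicate 2 and -0.52 to -0.18 without replicate 3. In the same order, that of HIST2H2BC was -0.35 to 0.02 and -0.32 to 0.23. That of HIST2H2BE was -0.36 to 0.04 and -0.28 to 0.31. These values describe 9 libraries that share depth and preparation, and they are given without a test.

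The same contrast shows in the SD of single genes. HIST1H4C had a within-group SD of 0.70 log2 units, larger than that of 98.4% of the genes with at least 50 reads on average, and HIST1H1C 0.48, larger than 90.8%. HIST2H2BE had 0.15, larger than 22.0%, HIST2H2BC 0.16, larger than 27.5%, and HIST1H2BK 0.22, larger than 44.7%. HIST1H2BD, at 0.41 and 83.7%, had the widest spread of these H2B rows. Without gFBXW7_gKMT2D replicate 3 the SD of HIST1H4C was 0.38 (91.5%) and that of HIST1H1C 0.35 (88.9%). In the same setting the SD of HIST2H2BE was 0.15 (38.8%), that of HIST2H2BC 0.17 (47.3%) and that of HIST1H2BK 0.24 (68.2%).

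Ratios within a library leave out its depth and scaling. Counts of HIST2H2BC were 1.74 to 2.10 times those of HIST2H2BE in the 9 libraries. Counts of HIST2H2AC were 1.11 to 2.37 times those of HIST2H2BE, although the pair shares 1 promoter stretch, with the highest ratio in gFBXW7_gKMT2D replicate 3 and the lowest in gLuc replicate 3. Counts of HIST1H1C were 2.30 to 5.60 times those of HIST1H2BK, and those of HIST1H4C 0.359 to 1.77 times. The ratios to HIST1H2BK were again highest in gFBXW7_gKMT2D replicate 3.

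Other features of the libraries moved along. Genes shorter than 1000 bases took 9.52%, 8.03% and 6.92% of the counts in gLuc, 9.35%, 8.66% and 8.24% in gFBXW7 and 10.2%, 7.39% and 12.9% in gFBXW7_gKMT2D. RN7SK, a small nuclear RNA without a poly(A) tail, was at 9.33, 3.90 and 5.16 CPM in gLuc, at 7.35, 6.37 and 6.37 in gFBXW7, and at 5.33, 3.16 and 11.8 in gFBXW7_gKMT2D. MALAT1, a nuclear RNA whose end is a triple helix, was at 1969, 1184 and 901 CPM, then 2901, 2055 and 1842, then 1973, 1045 and 5565. Of the 6 tested RNAs listed as lacking a canonical poly(A) tail, RN7SK, MALAT1 and SNORD3A were highest in gFBXW7_gKMT2D replicate 3. RN7SK and RMRP were lowest in gFBXW7_gKMT2D replicate 2. NEAT1 ran the other way, with its highest value, 302 CPM, in replicate 2 and its lowest, 219 CPM, in replicate 3. Only its long form ends in a triple helix, and the counts do not separate its forms. The summed members were lowest in replicate 2 and highest in replicate 3. So were 3 lists described below: replacement histones, whose messages are polyadenylated (2081 and 4323 CPM), histone chaperones (3768 and 4818) and DNA replication genes (5396 and 6499). The list of histone RNA processing genes was not (1854 and 1785 CPM), and the plasma cell markers were lowest in replicate 2 only. This order was thus not particular to RNAs without a poly(A) tail. The part of incomplete poly(A) selection in the result was not tested. With the gene length trend of each library removed, an alternative chosen after the data had been seen, 0 members were called and the medians were -0.31, -0.27 and 0.18 in the order of the comparisons above.

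The genes whose deviations were most like those of the summed members were MRPS34, MRPS12, MRPL48, GPR21 and OAZ1, each with r of 0.998 over 9 libraries. The first 3 encode mitochondrial ribosomal proteins and OAZ1 encodes an inhibitor of ornithine decarboxylase. Among members the highest r with the sum was that of HIST1H1C, which is part of it, at 0.996.

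Genes that make and handle histone messenger RNA were described beside the members. Of a list of 24 genes for transcription and 3′ end processing of these transcripts, 23 were tested and 0 were called in any comparison, with medians of -0.03, -0.06 and -0.02. SLBP, which binds the stem-loop, was at 244, 211 and 185 CPM in gLuc, at 260, 210 and 220 in gFBXW7 and at 228, 188 and 316 in gFBXW7_gKMT2D. NPAT, the coactivator, was at 30.3, 42.2 and 48.3, then 24.2, 28.4 and 34.3, then 32.9, 45.6 and 29.1 CPM. The groups overlap for both genes. The log2 fold change of NPAT in gFBXW7 against gLuc was -0.47 (SE 0.23, edgeR adjusted p 0.96).

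Replacement histones are made from polyadenylated messages, also outside S phase. H3F3A, which encodes the H3.3 replacement form, had 1001 RPKM on average, against 2.0 for the highest replication-dependent H3 gene. Both values are of RNA that passed poly(A) selection and do not give the ratio of the 2 messages in the cells. Of 12 such genes 9 were tested, with 9, 5 and 4 above 0 in the 3 comparisons, medians of 0.11, 0.10 and -0.08 and 0 called. Of 19 histone chaperones, all tested, 10, 7 and 6 were above 0 and 0 were called, with NAP1L1 the highest at 861 CPM. Of 26 genes of the cyclin E axis and DNA replication, all tested, 14, 12 and 11 were above 0 and 0 were called, with MCM4 of the replicative helicase the highest at 672 CPM. At an unadjusted p under 0.05 edgeR had 0, 0 and 1 of these last 26 genes, the 1 being CDC6, and 0 of the replacement histones, chaperones or processing genes. Of 21 RNAs listed as lacking a canonical poly(A) tail 6 were tested, with 6, 5 and 3 above 0, medians of 0.15, 0.22 and -0.00 and 0 called. Of the 8 plasma cell markers 3, 3 and 1 were above 0 and 0 were called, with XBP1 the highest at 945 CPM. At an unadjusted p under 0.05 edgeR had 0, 1 and 1 of these 8, in both cases SDC1, with log2 fold changes of -0.36 (SE 0.14) and -0.40 (SE 0.14).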

How the data were processed

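Messenger RNA of 9 OPM-1 libraries, 3 per group, had been poly(A) selected and made into strand-marking libraries, per the labels' protocols. The submitters' processing notes name STAR, Trimmomatic, DESeq2 and featureCounts and the build GRCh38, without versions. Each gene has a deposited count and a deposited RPKM in each library, per the file headers. The counts deposited by the authors are whole numbers without normalisation, and RPKM recomputed from count, length and total differed by at most 8.5e-07 in relative terms. An unnamed row equal to the column sums was left out.

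Counts were fitted in R 4.3.3 with edgeR 4.0.16 (filterByExpr, TMM, quasi-likelihood, group as the only term, all 9 libraries). CPM uses the TMM-scaled library size, and log2 CPM a prior count of 2. A standard error is the fold change divided by the square root of F. DESeq2 1.42.0 and sva 3.50.0 served as alternatives, and the code was tested on simulated data. With changes placed in gFBXW7_gKMT2D, in genes drawn from all those tested, 93.9% of 4-fold changes were called in each comparison with that group. Of 2-fold changes 51.0% were called against gLuc and 45.0% against gFBXW7, so a 2-fold change in a member could go uncalled. Replicate numbers were not treated as pairs: deviations of same-numbered libraries correlated at -0.59 to 0.45, with 4 of 9 correlations over 0.1. Replicate pairs differed by 6.36 to 231 chi-squared per degree of freedom, so no library repeats another. Python 3.11.15 and pandas 2.3.3 made tables and sequence searches.

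Full statistics are given for the most abundant tested member of each type, for called members, and for the 2 largest rises and 2 largest falls per comparison among members with a mean log2 CPM of at least 2. Levels are given for the 3 highest members per type and for all of HIST3 and HIST4. NPAT, SLBP and the most abundant gene of other lists are named. The members and lists were chosen with earlier results of these data known.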

Additional observations from a re-analysis of the deposited data

How the results depend on the processing

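Over 57 alternatives of the 3 comparisons (DESeq2 size factors, upper quartile scaling, no filter, a mean of at least 50 reads, DESeq2, the 6 compared libraries alone, the replicate block, 1 surrogate variable, each library left out, and, chosen after the data had been seen, the gene length trend removed and identical copies counted once), 0 members were called. The median log2 fold changes moved by at most 0.34, about the SD of the library medians. Leaving out 1 library gave -0.27 to 0.10 in gFBXW7 against gLuc, -0.30 to 0.22 in gFBXW7_gKMT2D against gLuc and -0.10 to 0.51 in gFBXW7_gKMT2D against gFBXW7. With 1 surrogate variable they were -0.34, -0.24 and 0.18, and in gFBXW7 against gLuc 9 of 26 members then had an unadjusted p under 0.05 (edgeR) against 4.35% of all genes. The lowest adjusted p of any member in any alternative was 0.15, in gFBXW7_gKMT2D against gFBXW7 with that variable. With the length trend removed the count was also 9 of 26, against 1.92%. The replicate block gave -0.10, 0.02 and 0.24 and changed no call. It left 2 and 2 genes called over the whole table in the comparisons with gFBXW7_gKMT2D, against 7 and 8, and 4 of 9 libraries correlated best with their own number. Among all tested genes, edgeR called 0, 7 and 8, against 1, 21 and 31 by DESeq2, 0, 21 and 33 without the filter and 0, 55 and 124 with 1 surrogate variable. Some fold changes of single members changed sign. With 1 surrogate variable HIST1H4C was -0.29 and HIST2H3A -0.05 in gFBXW7 against gLuc, and HIST1H1C -0.30 and HIST2H2AA3 -0.17 in gFBXW7_gKMT2D against gLuc. With the length trend removed these 4 were -0.09, -0.07, -0.18 and -0.13, and HIST2H2BC was -0.16 in gFBXW7_gKMT2D against gLuc. Leaving out 1 library turned HIST1H1C (-0.30 to 0.14), HIST2H2AA3 (-0.30 to 0.12) and HIST1H4C (-0.14 to 0.35) in gFBXW7 against gLuc. It turned HIST1H1C (-0.32 to 0.40), HIST2H2AA3 (-0.18 to 0.41), HIST1H4C (-0.08 to 1.14) and HIST1H2BK (-0.18 to 0.08) in gFBXW7_gKMT2D against gLuc. It turned HIST1H1C (-0.21 to 0.51), HIST2H2AA3 (-0.07 to 0.52) and HIST1H4C (-0.19 to 1.03) in gFBXW7_gKMT2D against gFBXW7. The cause was not tested. Shares without immunoglobulin and mitochondrial genes were unchanged to 3 digits, since 2 such rows are in the table. The ratio of group means by summed RPKM was 0.887, 1.03 and 1.16, against 0.883, 1.02 and 1.16 by counts. Of the 26 tested members 17 had a mean under 50 reads, so differences in those are limited by depth.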
